A study of Saccharomyces cerevisiae with 28 samples.

Results

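The chromatin of the ribosomal DNA (rDNA) in cells lacking *SIR2* was compared with that of WT cells in G2, a stage at which replication origins have fired and Mcm2-7 is not loaded. The comparison rests on 2 of the 28 libraries of the series, the MNase-seq library of *sir2* cells and that of WT cells, both made from cultures arrested with nocodazole. Each culture was of 1 *MATa* strain of the S288C background that carries *his3*, *leu2*, *met15*, *ura3* and *hmlα::HygR*. The *sir2* strain also carries *sir2Δ::KanMx*, and the study lists another number of rDNA repeats for it than for the WT strain. Genotype and repeat number therefore cannot be told apart. The column names give 3.75 U of MNase for both libraries. In MNase-seq, chromatin of crosslinked cells is digested with micrococcal nuclease, which spares DNA held by nucleosomes or other bound proteins, and the remaining fragments are sequenced from both ends. The values are read depths, 1 for every base between 458000 and 460000 on chromosome XII (sacCer3), or 2001 in all. Since every rDNA repeat of every cell feeds the same bases, a depth is an average over repeats and cells. With 1 library per genotype, no difference below has a replicate check or a test, and the 95% intervals cover counting error only. The interval holds no base of *SIR2*, so the deletion itself was not checked here.

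In budding yeast the rDNA is a tandem array in which RNA polymerases I and III work side by side, on the 35S and the 5S gene. The spacers hold a replication origin, the rARS, as well as RNA polymerase II promoters of non-coding RNAs. Sir2 is an NAD-dependent histone deacetylase that keeps these promoters silent and restrains the origin. At the rDNA it acts within the RENT complex. Reb1, a DNA-binding protein that marks the 35S promoter side of the spacer, leaves a footprint of its own. The study used it as the reference for the depths of its short MNase-seq fragments.

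On chromosome XII of the RefSeq annotation (build R64, the S288C sequence), the interval begins in RDN37-1, the 35S gene on the minus strand (451575 to 458432). It then crosses the spacer NTS2-1 (458433 to 459675, *IGS2* in the study), RDN5-1, the 5S gene on the plus strand (459676 to 459796), and the first 204 bases of the next spacer, NTS1-2 (459797 to 460711, *IGS1*). ARS1200-1, the annotated origin (458991 to 459097), lies in NTS2-1, and neither it nor the Reb1 footprint lies in a gene. The part of RDN37-1 that was covered is its 433 bases next to the start of transcription, all within the external transcribed spacer ETS1-1 (457733 to 458432), which is removed from the mature RNAs. The reference holds a second, identical copy of the bases from 458000 to 459792, so most of these reads match 2 places, whereas the bases further right have no such copy.

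The sequences that the results turn on are given from this build, plus strand, 5′ to 3′. They are the reference footprint and the origin with the only called stretch of at least 1.5-fold lower depth in *sir2* cells. The others are a stretch that reaches from the fifth into the sixth nucleosome window, the 5S gene and the start of NTS1-2. In the last of these the excess was greatest, and its sequence begins at 459790, in the last bases of the 5S gene. Capitals mark the Reb1 motif in the first, the stretch of lower depth in the second, a stretch of higher depth in the third, and in the fourth the part of the gene within the stretch of higher depth that ends at 459788 (the next begins at 459790). In the fifth they mark the base with the highest ratio with 25 bases on either side.
Reb1 footprint, chrXII:458591-458721: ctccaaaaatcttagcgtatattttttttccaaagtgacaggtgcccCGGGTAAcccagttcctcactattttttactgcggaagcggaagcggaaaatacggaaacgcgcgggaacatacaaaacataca
Origin, chrXII:458982-459097: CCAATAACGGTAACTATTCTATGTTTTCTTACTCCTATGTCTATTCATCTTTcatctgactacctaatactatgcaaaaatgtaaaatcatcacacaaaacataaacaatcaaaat
Boundary of nucleosomes 5 and 6, chrXII:459568-459617: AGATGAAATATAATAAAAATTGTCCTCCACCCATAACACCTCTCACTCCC
RDN5-1, chrXII:459676-459796: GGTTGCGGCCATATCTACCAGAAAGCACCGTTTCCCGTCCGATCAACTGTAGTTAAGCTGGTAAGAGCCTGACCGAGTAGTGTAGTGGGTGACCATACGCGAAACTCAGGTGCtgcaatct
Start of NTS1-2, chrXII:459790-460000: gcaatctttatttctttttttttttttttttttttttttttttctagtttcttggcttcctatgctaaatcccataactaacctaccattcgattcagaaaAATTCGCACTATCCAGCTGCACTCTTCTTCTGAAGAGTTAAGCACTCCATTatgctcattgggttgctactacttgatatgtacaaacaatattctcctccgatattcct
The Reb1 motif searched was TTACCCG on either strand. It occurred 1 time in the interval, at 458638 to 458644 on the minus strand, and in 0.899% of 8230 stretches of 131 bases that tile chromosome XII. The ARS consensus sequence, the element that the origin recognition complex reads in yeast origins, also matched 1 time, at 459058 to 459068 on the minus strand, outside the stretch of lower depth. It matched in 0.675% of 10076 stretches of 107 bases. A match of letters is a description and not a bound site.

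The WT library in G2 held about 1879109 reads in the interval and the *sir2* library 2233018, estimated from the sum of the depths and the read length of 50. In these libraries, and in the 4 other MNase-seq libraries of the series, rises of the profile were mirrored by falls 50 bases further on. A fragment longer than 100 bases is therefore counted at both ends and not at its middle. Depths were set against their mean over the Reb1 footprint (458591 to 458721), 88447 for WT and 100532 for *sir2* cells. The study applied its Reb1 reference to short fragments only, whereas these depths count reads of fragments of every length. The highest base of this window lay at 458705 in both libraries, and not in the Reb1 motif. A second scaling, to the total depth of the interval, gave ratios of *sir2* to WT that were lower by the same factor of 1.05 at every base. Genome-wide totals were not used here, so a ratio says how the depth at a base stands to that at the footprint, or to that of the interval, and not how much DNA was protected in absolute terms.

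Relative to the Reb1 footprint and to the total, the depth in *sir2* cells in G2 was higher than in WT from the fifth nucleosome through the 5S gene into NTS1-2, lower over the 35S gene, and lowest relative to WT at the left end of the origin. At 582 of the 2001 bases (29.1%) the Reb1-normalized depth was at least 1.5-fold higher in *sir2* cells, and at 52 bases (2.6%) it was at least 1.5-fold lower. Scaled to total depth, 500 bases (25%) were higher and 96 (4.8%) lower. The split depended on the scale. With the Reb1 maximum in place of its mean, 468 bases were higher and 110 lower, and with the median ratio of all bases set to 1, 476 were higher and 109 lower. Scaled to the covered part of the 35S gene, a choice made after seeing the data, the median log2 ratio of all bases was 0.48 in place of 0.08, with 848 bases higher and none past the threshold in the other direction. The highest ratio was 3.33 at 459916, in NTS1-2, where WT had a normalized depth of 0.177 and *sir2* 0.589. The lowest was 0.516 at 459002, within ARS1200-1, where WT had 0.618 and *sir2* 0.319.

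**Figure D1:**
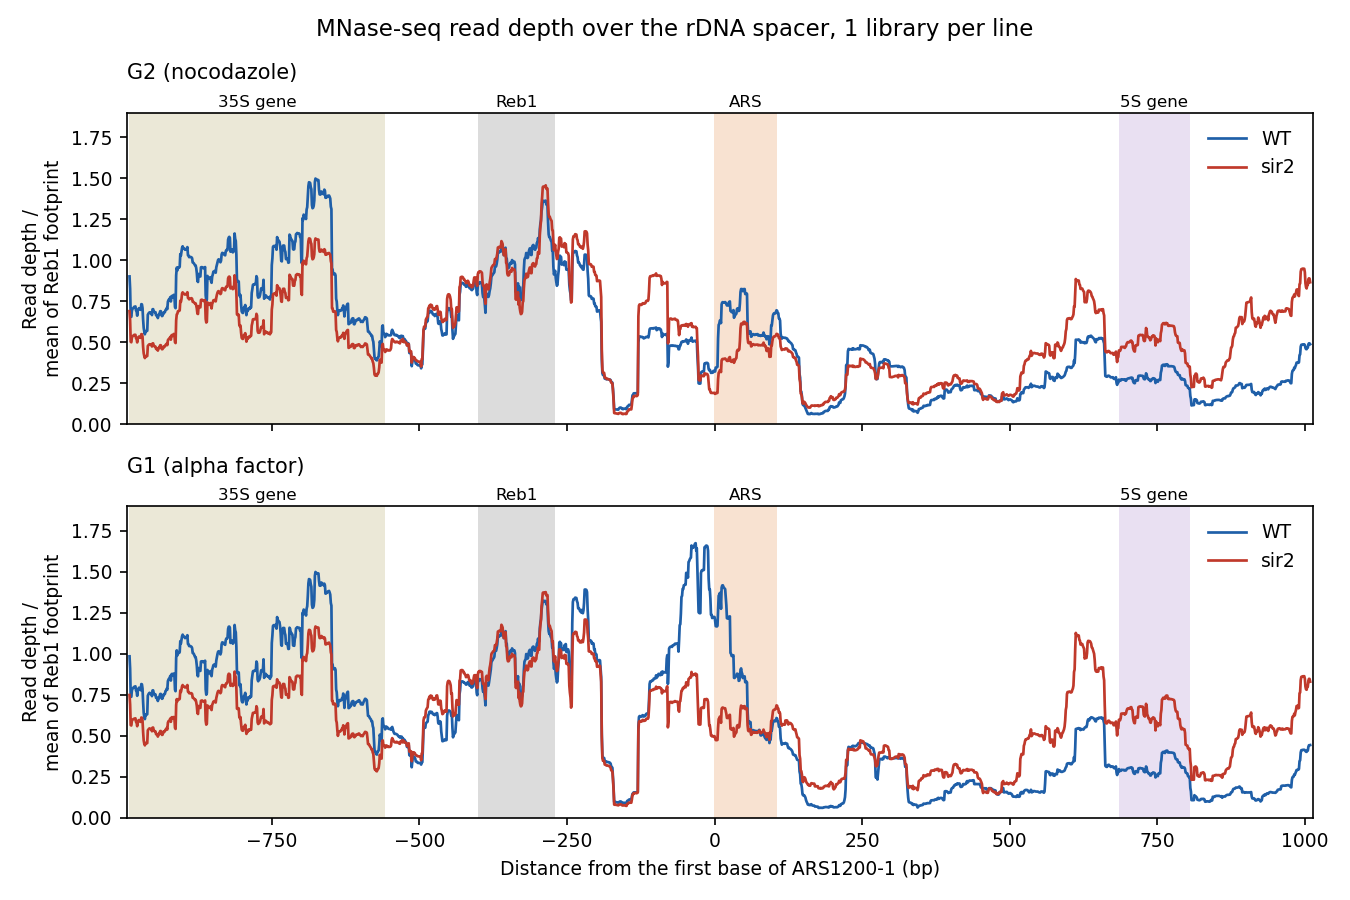
Read depth at each base divided by the mean of the Reb1 footprint (y axis) against distance from the first base of ARS1200-1 in bp (x axis), in G2 (top) and G1 (bottom), 1 library per line. In G2 the red line (*sir2*) lies below the blue line (WT) over the 35S gene, where window means were 0.675 and 0.890, and above it over the 5S gene, where they were 0.513 and 0.291.

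Stretches were called where at least 20 bases in a row passed 1.5-fold under both scalings. The G2 values that picked them also give their G2 ratios below. With these 2 scalings those ratios pass 1.5-fold by construction, and their intervals do not test it. There was 1 such stretch with lower depth in *sir2* cells, of 52 bases, and there were 6 with higher depth, of 487 bases in all. All 6 lay right of the origin. They covered the middle of the third nucleosome window (459149 to 459185), part of the fourth (459329 to 459357), the fifth (459509 to 459551), the boundary of the fifth and the sixth (459568 to 459617), the 5S gene (459672 to 459788) and the last 211 bases of the interval (459790 to 460000). The last 2 are parted by a single base, and with the Reb1 scaling alone they form one stretch of 348 bases that begins at 459653.

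**Figure D2:**
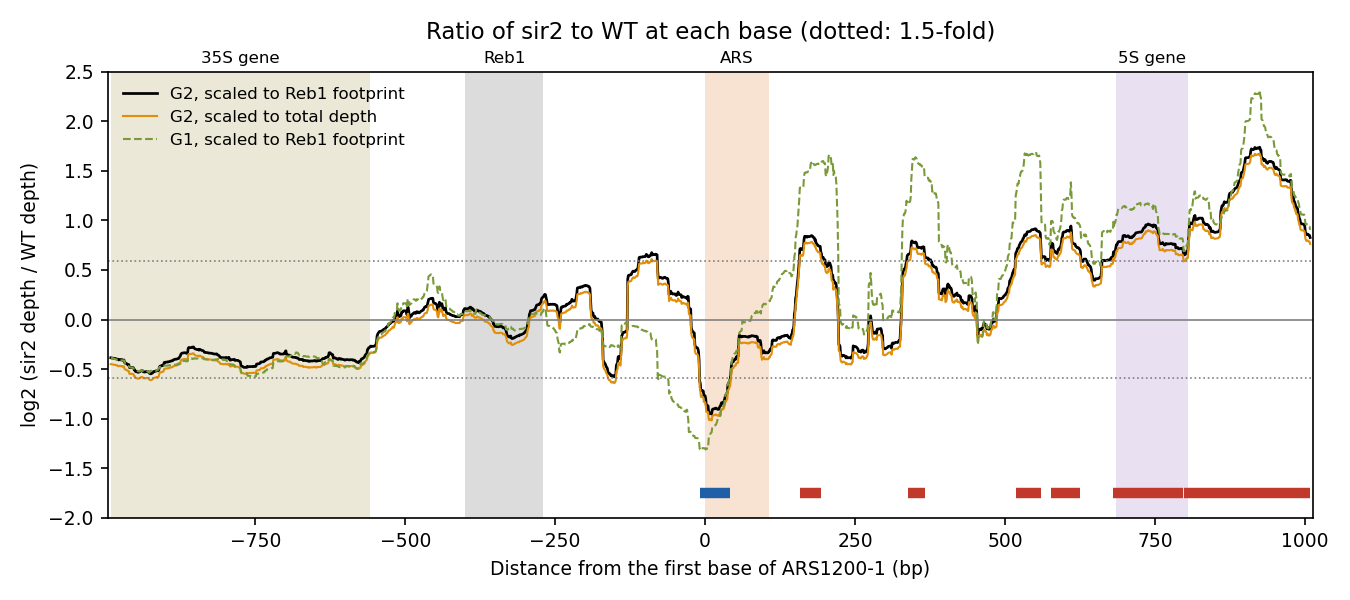
The log2 ratio of *sir2* to WT depth at each base (y axis) against distance from the first base of ARS1200-1 in bp (x axis), with dotted lines at 1.5-fold and bars at the bottom for the called stretches (blue lower, red higher in *sir2*). The solid G2 lines of the 2 scalings run in parallel, dip to a ratio of 0.516 at the origin and reach 3.33 in NTS1-2 with the Reb1 scaling, and the dashed G1 line follows them except left of the origin, from the third to the fifth nucleosome and near the highest ratio in NTS1-2.

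The stretch of lower depth, 458982 to 459033, begins just before ARS1200-1 and covers its left part. Its mean normalized depth of 0.332 in *sir2* cells stood against 0.589 in WT, a ratio of 0.565 (95% interval 0.557 to 0.573). Scaled to total depth the ratio was 0.540, and scaled to the 35S gene it was 0.745, which is below 1 but not past 1.5-fold. Over ARS1200-1 as a whole WT had a depth of 0.628 and *sir2* cells one of 0.451, with a ratio of 0.718 (0.711 to 0.726). With the Reb1 scaling all 107 of its bases were lower in *sir2* cells, as were all 433 covered bases of the 35S gene. Of the 1243 bases of NTS2-1, which holds the origin, 462 were lower. The difference was uneven along the origin. The first 50 bases had a ratio of 0.590, and the last 57 one of 0.845, with depths of 0.594 in WT and 0.502 in *sir2* cells. Left of the origin, from 458911 to 458990, the depth was instead 0.432 in WT and 0.490 in *sir2* cells, a ratio of 1.13 (1.12 to 1.15). Of these bases, 23 were lower in *sir2* cells, so the 2 genotypes crossed left of the first base of the origin.

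The shape of the profile at the origin was resolved further with blocks. A block is a rise of at least 0.07 of the Reb1 mean within 1 base, with a fall of at least that size 50 bases on, as reads that share an end leave. Its height is the mean of the rise and the fall, which does not depend on the smoother depth around it. This measure was chosen after the values were seen. Of 22 blocks found in either library, 13 had a lower height and 9 a higher one in *sir2* cells, and blocks that start a base or a few apart overlap and are not independent. The footprint used as the reference was itself not the same in shape. The blocks that begin at 458695 and 458698, at its right end, had ratios of 1.51 and 2.04, and the one at 458668 had 0.776, while its mean is 1 in each library by construction.

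Of 4 blocks that begin in the first nucleosome window, next to the Reb1 footprint, 3 were taller in *sir2* cells, and the one at 458728 to 458777 had a ratio of 0.793. The block at 458862 to 458911 had a height of 0.253 in WT and 0.427 in *sir2* cells, a ratio of 1.68, and the block at 458750 to 458799 had heights of 0.209 and 0.288, a ratio of 1.38. The first nucleosome window as a whole (458721 to 458901) had a ratio of 1.195 (1.185 to 1.205), and 21 of its 181 bases (11.6%, against 29.1% of all bases) were at least 1.5-fold higher and none lower. With total depth, 3 were higher and 14 lower. The highest depth near its right edge lay at 458892 in both libraries, with 0.590 in WT and 0.920 in *sir2* cells. The position was thus the same and the height was not.

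Inside the origin the order was the opposite. The block at 458997 to 459046 had a height of 0.178 in WT and 0.0855 in *sir2* cells, a ratio of 0.480. On the left side of the same nucleosome window (458911 to 459081, the second), the block at 458914 to 458963 had heights of 0.101 and 0.140, a ratio of 1.38. The 2 sides of the window therefore differed in direction, and the ratio of the window mean, 0.865 (0.857 to 0.873), averages over them. This mean is also one whose direction rests on the scale, since it was 1.14 when scaled to the 35S gene. Relative to the first nucleosome of the same library, which needs no outside reference, the depth of the second window was 0.936 in WT and 0.677 in *sir2* cells.

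**Figure D3:**
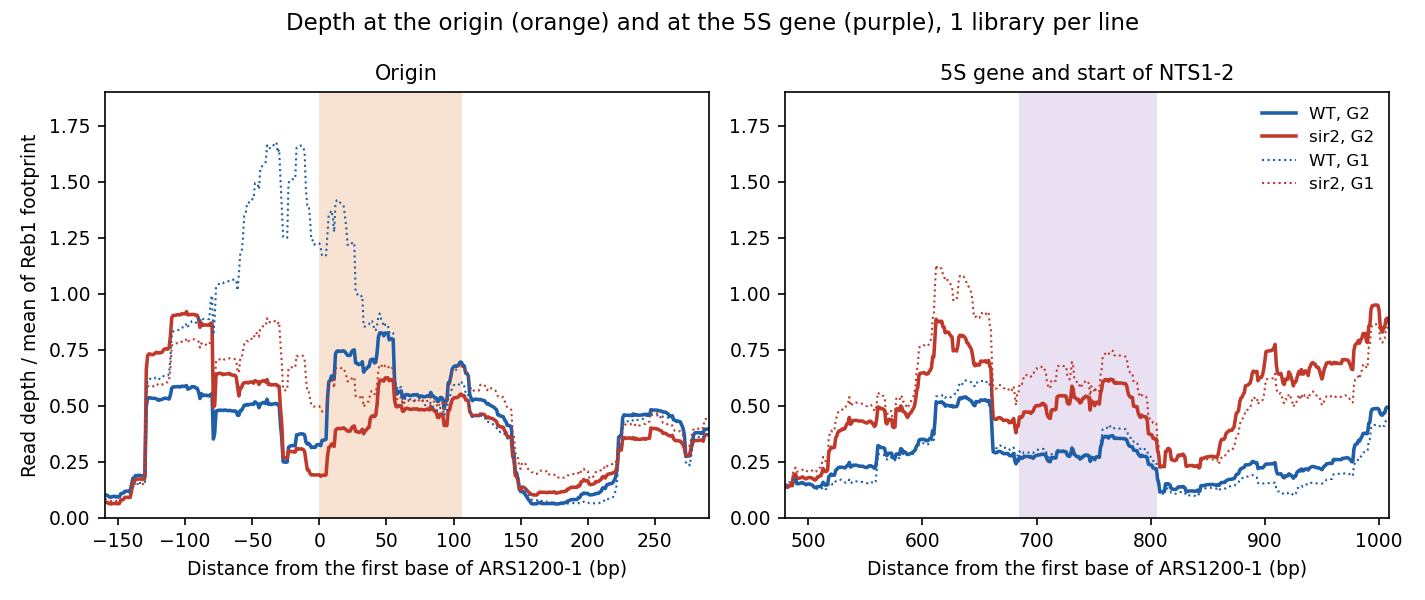
Reb1-normalized read depth (y axis) against distance from the first base of ARS1200-1 in bp (x axis) around the origin (left) and from the fifth nucleosome to the end of the interval (right), with solid lines for G2 and dotted lines for G1, 1 library per line. In G2 the red line (*sir2*) lies below the blue line (WT) over the whole origin, shaded orange, where the first 50 bases averaged 0.394 and 0.667. It lies above the blue line over the 5S gene, shaded purple, and beyond.

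In the third and the fourth nucleosome window, right of the origin, the window means were close and their direction rested on the settings, with ratios of 0.922 and 1.06. Within them the direction differed from place to place. The middle of the third window, 459149 to 459185, held the lowest depth of the WT library, at 459168. Its mean was 0.0691 in WT and 0.119 in *sir2* cells, a ratio of 1.72 (1.66 to 1.78). In contrast, the block at 459214 to 459263, at the right edge of that window, had a height of 0.109 in WT and 0.0496 in *sir2* cells, a ratio of 0.455. In the third window the depth was thus higher in *sir2* cells in the trough and its step at the right edge was lower. The stretch in the fourth window, 459329 to 459357, had means of 0.101 and 0.167, a ratio of 1.66 (1.60 to 1.72).

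From the fifth nucleosome on, the mean depth of *sir2* cells was higher in every window. The fifth window (459421 to 459581) had a mean of 0.208 in WT and 0.296 in *sir2* cells, with a ratio of 1.43 (1.41 to 1.44). The sixth (459591 to 459731) had 0.369 and 0.599, with a ratio of 1.62 (1.61 to 1.64). In the sixth window 116 of 141 bases (82.3%, against 29.1% of all bases) were at least 1.5-fold higher and none was lower in *sir2* cells. The highest base of this window was not the same in the 2 libraries. It lay at 459629 in WT, with a depth of 0.540 there and of 0.799 in *sir2* cells at that base. In *sir2* cells it lay at 459603, with a depth of 0.886 against 0.516 in WT. The maximum of *sir2* cells in G1 was also at 459603 and that of WT in G1 at 459629.

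RDN5-1 itself, the gene of the 5S RNA of the large ribosomal subunit, had a mean normalized depth of 0.291 in WT and 0.513 in *sir2* cells, a ratio of 1.76 (1.74 to 1.78). All 121 of its bases were at least 1.5-fold higher with the Reb1 scaling (against 29.1% of all bases) and 120 with total depth (against 25%). The excess was spread over the gene, with a ratio of 1.82 in its left 60 bases and 1.71 in its right 61 bases. Its local maximum lay at 459758 in WT and at 459756 in *sir2* cells, so the profile within the gene kept its place.

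The covered part of NTS1-2 had the greatest excess among the windows described, with a mean of 0.229 in WT and 0.559 in *sir2* cells, a ratio of 2.44 (2.42 to 2.47) with the Reb1 scaling and 2.34 with total depth. All 204 of its bases were at least 1.5-fold higher (against 29.1% of all bases with the Reb1 scaling). All 149 bases of the interval that were at least 2-fold higher lay in it. The ratio was not even along the spacer. It was 2.30 in the first 100 bases and 2.52 in the rest. A tract of 29 T (459804 to 459832), next to the 5S gene, had a low depth in both libraries, 0.131 in WT and 0.261 in *sir2* cells. At 459900 *sir2* cells had a local maximum of 0.774, and WT had a depth of 0.246 there, below the minimum of 0.3 for calling one. At the right end of the interval the depth climbed in both genotypes, to 0.494 at 459998 in WT and 0.950 at 459988 in *sir2* cells, and the end of the interval sets where these maxima are read. The bases of this stretch right of 459792 lie past the copied part of the reference, and the part of the number of matching places in the result was not tested.

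Over the covered part of the 35S gene the depth was lower in *sir2* cells. The mean was 0.890 in WT and 0.675 in *sir2* cells, a ratio of 0.758 (0.753 to 0.763) with the Reb1 scaling and 0.725 with total depth. With the Reb1 scaling all 433 bases were lower in *sir2* cells (against 462 of the 1243 bases of NTS2-1), none by 1.5-fold (29 with total depth). The ratio ran from 0.684 to 0.825 between bases and from 0.713 to 0.789 between consecutive stretches of 50 bases. Of the blocks, 6 lay in the gene. The tallest, at 458293 to 458342, had a height of 0.320 in WT and 0.234 in *sir2* cells, a ratio of 0.733. The excess of WT thus had much the same size along the gene and followed the pattern of the profile. It ended near the start of the gene. The promoter stretch between the gene and the Reb1 footprint (458433 to 458590) had means of 0.610 and 0.627, a ratio of 1.03 with the Reb1 scaling and 0.984 with total depth. The Reb1 motif had a depth of 0.975 in WT and of 0.934 in *sir2* cells.

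Ratios between windows of 1 library need no outside reference, though each takes its own denominator as the scale. With the 35S gene as denominator, a choice made after seeing the data, they gave the highest values of any setting for the 5S gene and NTS1-2. The mean depth of the 5S gene divided by that of the covered 35S gene was 0.327 in WT and 0.761 in *sir2* cells, a 2.33-fold difference. For NTS1-2 over the 35S gene the values were 0.257 and 0.829, a 3.22-fold difference, and for the sixth nucleosome over the fourth they were 1.52 and 2.34. ARS1200-1 over the 35S gene was 0.706 in WT and 0.669 in *sir2* cells, so the depth at the origin as a whole and that over the 35S gene were lower in *sir2* cells by nearly the same factor.

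The right share needs no scale. It was taken in a region around the rARS that begins within the first nucleosome and ends within the fifth. It is the percent of the depth that lies right of 458991, the left end of the annotated origin. The right side therefore holds the origin itself and most of the stretch of lower depth in *sir2* cells. WT had a right share of 70.5% (95% Wilson interval 70.3% to 70.6%), and *sir2* cells had one of 62.7% (62.6% to 62.9%). The value for *sir2* minus WT was -7.74 percentage points (-7.94 to -7.54), and it was -2.68 with the boundary set 40 bases to the right. The difference was thus smaller when the left part of the origin was counted on the left side. In the G1 libraries described below the order was the opposite, with 53.1% in WT and 64.5% in *sir2* cells. The G1 libraries of *cdc6-1* cells had 50.6% at 23 degrees and 75.5% at 37 degrees, below and above both G2 values. The region holds neither the sixth nucleosome nor the 5S gene, so the excess at these places does not enter the share.

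Of the 40 largest steps between neighbouring bases in each library, 29 (72.5%) were at the same base in both. Fewer of the local maxima were. Local maxima were taken as the highest base within 60 bases on either side with at least 0.3 of the Reb1 mean. They numbered 11 in WT and 13 in *sir2* cells. Of these, 5 were at the same base, 6 in WT only and 8 in *sir2* cells only. The 5 include 458000, the first base of the interval. Several that counted for a single library lay close to one of the other library. WT had maxima at 458315, 459036, 459758 and 459998, and *sir2* cells had them at 458304, 459042, 459756 and 459988. Across bases the steps of the 2 libraries had a Pearson correlation of 0.924 and the depths one of 0.816, which is a description of bases that share reads.

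Libraries of the same strains arrested in G1 with alpha factor, with 7.5 U of MNase by their names, allow the comparison to be set beside a separate pair of cultures. Among the 582 bases at least 1.5-fold higher in G2, 551 (94.7%) were also at least 1.5-fold higher in G1, where 649 bases (32.4%) passed, and these 551 were 84.9% of the G1 bases. All 52 lower bases of G2 were among the 109 (5.45%) of G1. The log2 ratios of the 2 arrests had a correlation of 0.883 across bases. For the 35S gene the ratio was 0.758 in G2 and 0.737 in G1, for the 5S gene 1.76 and 2.01, and for NTS1-2 2.44 and 2.69. The ratios lay further apart on both sides of the origin. In the stretch of 80 bases left of the origin the ratio was 1.13 in G2 and 0.531 in G1 (0.525 to 0.536). At the stretch in the third window it was 1.72 in G2 and 2.82 in G1, at that in the fourth 1.66 and 2.83, and at that in the fifth 1.80 and 2.98. No test of these differences between arrests was possible with 1 library each, and arrest and MNase amount cannot be told apart.

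The 2 libraries of *cdc6-1* cells in G1, at 23 and 37 degrees, give 2 further cultures whose strain is listed with no *sir2* deletion and without *hmlα::HygR*. Taking the 2 *sir2* libraries against these and the 2 WT libraries, with the Reb1 scaling, 7 of 11 windows did not overlap. Of these 7, 5 had *sir2* above and 2 had *sir2* below. The share, 7 of 11, is close to that of single bases that did not overlap, 65.6%. Some windows share bases, and the libraries differ in arrest, temperature and strain. Among the 5, the promoter stretch had 0.627 and 0.622 against 0.610 at most. With total depth it overlapped, with 1.13 and 1.06 in the *sir2* libraries and 1.15 in WT in G2. NTS1-2 had 0.476 and 0.559 in the *sir2* libraries and between 0.177 and 0.238 in the other 4. The 5S gene had 0.513 and 0.626 against 0.291 to 0.414. The 35S gene had 0.675 and 0.682 against 0.890 or more, and ARS1200-1 had 0.451 and 0.574 against 0.628 to 0.821. The first 4 nucleosome windows overlapped. The taller block at the first nucleosome in *sir2* cells in G2 also had neighbours among the others, with heights of 0.354 in *cdc6-1* cells at 23 degrees, 0.315 in *sir2* cells in G1 and 0.137 in *cdc6-1* cells at 37 degrees. Of the 22 blocks, 12 (54.5%) did not overlap between the 2 *sir2* libraries and the other 4. The blocks with the lowest ratios in G2 were among them, though the G2 values that picked these blocks also enter this comparison. In the origin, the one at 458997 to 459046 did not overlap. Its height was 0.0855 and 0.0885 in the *sir2* libraries and between 0.109 and 0.218 in the other 4. Likewise, the block at 459214 to 459263 had 0.0496 and 0.0569 in the *sir2* libraries and between 0.0935 and 0.164 in the others.

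**Figure D4:**
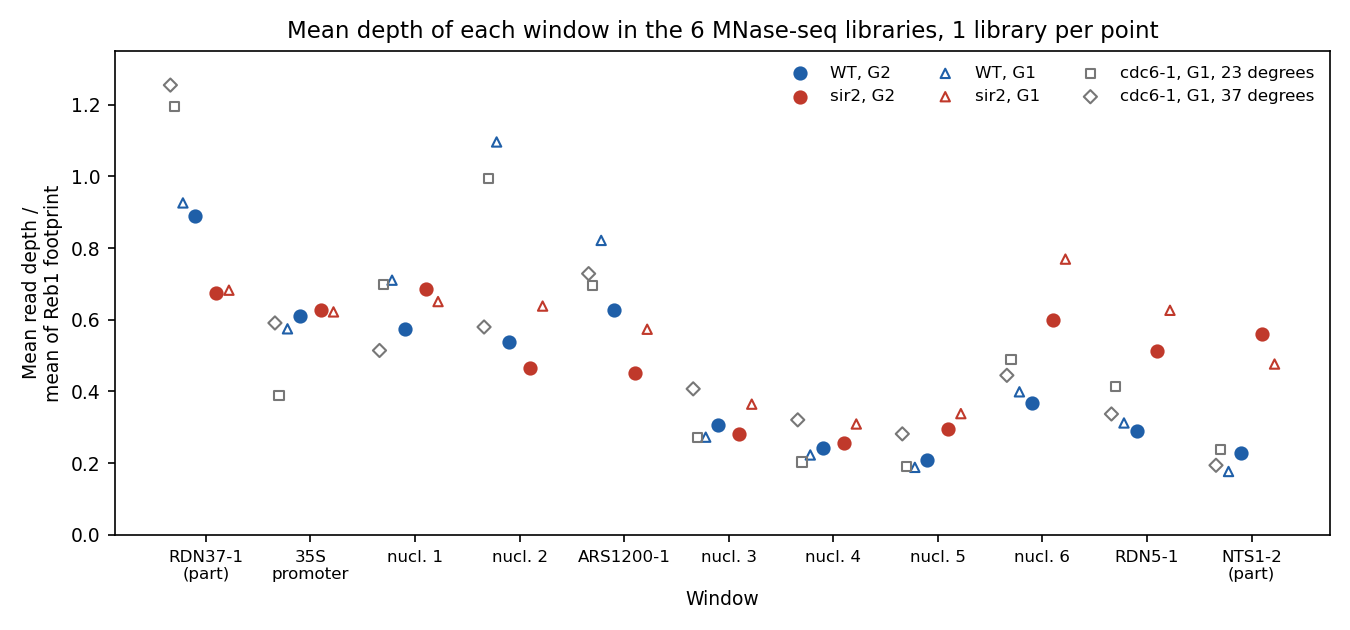
Mean Reb1-normalized read depth (y axis) of each of 11 windows (x axis) in the 6 MNase-seq libraries, 1 library per point, with filled circles for G2. Both *sir2* libraries (red) lie above the other 4 at the 5S gene and NTS1-2, where they read 0.513 or more and 0.476 or more, and below them at the 35S gene and ARS1200-1, and they overlap the others at the first 4 nucleosomes.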

How the data were processed

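Fragments were read from both ends, 50 bases a side. The authors aligned these reads with GSNAP to sacCer3 and deposited the read coverage (signal) at each base, not scaled to library size and with no fragment sizes. Per the labels, Picard and bedtools were also used, and versions are not given in the sources used here. How reads that match both reference copies of the repeat were placed is also not given there. Of 28 library columns, 6 MNase-seq columns were used, matched to samples by genotype, arrest and temperature in their names. The other 22 were not used. Sonicated DNA, planned as context, was left out because its columns carry strain numbers that the labels do not give. The strain list of the study was not used to match them.

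Depths were divided by the mean of the Reb1 footprint or by the total of the interval. A base was called at 1.5-fold, and a stretch at 20 or more such bases under both scalings. Named are annotated features, the Reb1 footprint, 6 nucleosome windows, called stretches and local maxima. Depth sums divided by 50 were taken as reads for 95% intervals (log-normal for ratios, Wilson for shares), which do not cover differences between cultures and treat reads as independent. The windows and lists were chosen with earlier results of these data known. Alternatives were other scales, background subtraction (the lowest depth of the interval), narrower windows, window maxima, a depth minimum, leaving out 100 bases at each end, bins of 10 bases, folds of 1.25 and 2, and other boundaries. The scale to the 35S gene was added after seeing the data. The ratio at each base and its 1.5-fold call were tried on simulated reads with a planted stretch of higher depth, and the other steps were not. Sequences and annotation are from RefSeq (R64). Computations used scipy 1.17.1, pandas 2.3.3 and numpy 2.4.6 under Python 3.11.15, with plots from matplotlib 3.10.9.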

Additional observations from a re-analysis of the deposited data

Results flagged for a closer look

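In the first nucleosome window the *sir2* to WT ratio of the Reb1-normalized depth was 1.19 in G2 and 0.916 in G1. In the third nucleosome window it was 0.922 in G2 and 1.34 in G1. Both stand out because the genotypes differed in opposite directions in the 2 arrests, with the Reb1 and the total scaling. Scaled to the 35S gene they did not. The ratio for the first nucleosome was then 1.58 in G2 and 1.24 in G1, and that for the third 1.22 in G2 and 1.81 in G1. In a narrower window the third nucleosome had 1.01 in G2. The difference between the arrests was not tested, with 1 library each, and arrest and MNase amount cannot be told apart.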

How the results depend on the processing

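Of 76 window ratios recomputed over 11 windows and up to 7 settings, 66 stayed on the same side of 1, and in 7 windows all did (the 35S gene, ARS1200-1, the first, the fifth and the sixth nucleosome, the 5S gene and NTS1-2). The lowest and highest ratios were 1.65 and 2.33 for the 5S gene, 1.92 and 3.22 for NTS1-2 and 0.672 and 0.948 for ARS1200-1. The promoter stretch had 0.984 with total depth, 0.963 with the Reb1 maximum and 0.972 with the median ratio at 1. The second nucleosome had 1.14 when scaled to the 35S gene and 1.05 by its maximum, and the third 1.22 when scaled to the 35S gene and 1.01 in the narrower window. The fourth had 0.989 with the Reb1 maximum, 0.999 with the median ratio at 1 and 0.802 by its maximum. At 2-fold, 149 bases were higher and 0 lower. The count of lower bases, 52, was 96 with total depth, 110 with the Reb1 maximum, 109 with the median ratio at 1, 110 with the background subtracted, 0 when scaled to the 35S gene and 535 at the lowest fold tried. The difference in right share was -9.40 points with the background subtracted, -8.09 and -2.68 with the boundary 40 bases to the left and right, and -8.89 in the narrower region. No paired analysis was possible because each genotype and arrest has 1 MNase-seq library, with no replicate number, and no library could be left out in turn. The causes of these shifts were not tested. Depth does not limit these ratios, since counting intervals are narrow, but the single library per genotype does.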
